A study of Mus musculus with 2 samples.

Results

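Peaks of the transcription factor Aiolos were examined at the genes for cytosolic ribosomal proteins and translation initiation factors in mouse natural killer (NK) cells. The group was taken by name: every peak whose assigned gene symbol starts with Rpl or Rps and a digit, or with Eif and a digit, without the Rps6k kinases. This gave 11 peaks of 1404, assigned to 11 genes of 1276. CUT&RUN, in which an antibody directs a nuclease to the chromatin around its target and the released DNA is sequenced, had been done on 2 libraries: 1 with the Aiolos primary antibody and 1 with no primary antibody. Both came from splenic NK cells grown in medium whose interleukin-15 was at 50 ng/ml, until each sample had 500000 cells or more. No source used here gives their genotype, strain, age or sex, and a list of peaks cannot be checked for cell type markers, so the cell type is as labelled. There was 1 library per group and thus no replicate error. Intervals of folds and shares below are 95% intervals for counting error, exact Poisson for folds and exact Clopper-Pearson for shares. Those of medians are order-statistic intervals over the peaks of a set, of 95% or more. No difference between gene groups was tested.

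Aiolos, encoded by Ikzf3, is a zinc finger protein of the Ikaros family, whose members bind DNA with a GGGAA core and can repress or activate lymphocyte genes. Ribosomal proteins assemble with ribosomal RNA into the large and the small subunit. Initiation factors bring the small subunit, the initiator tRNA and the mRNA together before the large subunit joins, and activated lymphocytes make more of both as they grow. The symbol pattern also takes in genes of other roles. Among them are Eif2ak3, a stress kinase that phosphorylates an initiation factor, and Eif4enif1, a protein that binds and transports Eif4e. Below, the class of initiation factors means every gene whose symbol starts with Eif and a digit, whatever its role. In the same way, the large and small subunit classes mean the genes of the group with Rpl and Rps symbols. They take in paralogs such as Rpl7l1.

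The sequences below show part of the promoter stretch under these peaks, as far as the reference windows reach. RefSeq's table (GRCm38.p6, the assembly of mm10) has windows from 250 bases before to 50 after a start for 8 of the 11 genes, and for 6 of the 10 genes with a promoter peak the window nearest the summit overlapped the peak. Bases are given 5′ to 3′ on the gene's strand, with each match to GGGAA or its complement TTCCC in capitals. Upstream window bases inside the peak were as follows for the genes with no annotated start over 30 bases farther upstream. These are the strongest peak of the group, at Eif4enif1, and those of Rpl10 and Rpl7l1. For Rpl10 the window held 65 of the 590 bases of the peak and not its summit. The peaks of Eif4enif1 and Rpl7l1 also reach beyond the printed bases.
Eif4enif1, chr11:3202103-3202352, + strand: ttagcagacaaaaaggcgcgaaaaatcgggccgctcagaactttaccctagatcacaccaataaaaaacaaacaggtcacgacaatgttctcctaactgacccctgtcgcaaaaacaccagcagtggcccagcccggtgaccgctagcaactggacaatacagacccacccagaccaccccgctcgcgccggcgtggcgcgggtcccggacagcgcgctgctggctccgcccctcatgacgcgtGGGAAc
Rpl10, chrX:74270566-74270630, + strand: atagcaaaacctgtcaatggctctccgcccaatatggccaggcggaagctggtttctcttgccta
Rpl7l1, chr17:46782657-46782906, - strand: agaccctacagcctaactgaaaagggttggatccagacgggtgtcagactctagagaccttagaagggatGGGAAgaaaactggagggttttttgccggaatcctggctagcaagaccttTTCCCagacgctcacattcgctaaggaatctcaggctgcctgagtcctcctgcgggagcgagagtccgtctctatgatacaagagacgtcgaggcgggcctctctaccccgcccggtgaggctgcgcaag
For Rps9, Eif5a and Rpl39, where the annotations have starts farther upstream, the 30 bases of the window nearest the summit are given. Those of Rps9 lie 20 to 49 bases after the window's start and stop short of the summit, which is outside the window.
Rps9, chr7:3704061-3704090, + strand: gtaggtgagtgttctgattgttgagttcgc
Eif5a, chr11:69921553-69921582, - strand: gagctgtcgctcaaggggaGGGAAgaagag
Rpl39, chrX:37085346-37085375, - strand: aatgatgatcacctgcaggaacaggcatgg

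GGGAA, on either strand, was in 5 of these 6 windows of 300 bases (83.3%, 35.9 to 99.6), in 360 of 561 windows under another promoter peak (64.2%) and in 20599 of all 32851 windows (62.7%). A core this short is common, and the members' interval contains the share of all windows. In Eif5a the match lay 6 bp from the summit and in Rpl7l1 the nearer of 2 matches lay 22 bp from it. The matches in Rpl39 and Eif4enif1 were also inside the peak, 60 and 132 bp from the summit. In Rpl10 the match was outside the peak, and the Rps9 window had none. The longer TGGGAA, which contains GGGAA, was in 3 of 6 windows (50.0%, 11.8 to 88.2), those of Eif4enif1, Rpl39 and Rpl7l1, against 21.4% under other promoter peaks and 25.6% of all windows. The AP-1 motif TGANTCA was in 0 of 6 windows, against 4.81% and 7.81%. CCGGAAG, an ETS core, was in 1 of 6 (Rpl39, outside the peak), against 17.6% and 8.86%. AAGATGGC, bound by YY1, was in 1 of 6 (Rpl7l1), against 6.24% and 2.75%. TATAAA, the TATA box, was in 1 of 6 (Rpl39), against 6.60% and 13.6%. CTTTCC, a pyrimidine tract, was on either strand in 3 of 6 windows, against 26.0% and 26.6%. In Rps9 it was on the gene's strand, outside the peak. In Eif5a and Rpl7l1 it was on the other strand, so the gene's strand there has its purine complement. In the windows of group members without a peak, GGGAA was in 66.4% of 122, close to its share of all windows. CCGGAAG was in 32.0% and CTTTCC in 40.2% of those 122. Every motif share here counts matches on either strand. The GC content of the 6 windows ran from 53.7% to 61.3% with a median of 57.2%, against a median of 60.3% under other promoter peaks and 52.7% over all windows.

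Among the 143 protein-coding genes that fit the symbol pattern, 11 had a peak, a share of 7.69% (3.90 to 13.3), against 5.38% of all 21900 protein-coding genes of the table. Counting promoter peaks alone, with the peak centre within 1000 bp of the start of the annotated transcript, 10 of 143 had one (6.99%, 3.40 to 12.5), against 3.79%. Both intervals contain the background share. Ribosomal protein genes alone had a promoter peak in 8 of 87 cases (9.20%, 4.05 to 17.3). That interval lies above the 3.79% for promoter peaks but contains the 5.38% for any peak. Both background shares cover all protein-coding genes, whether or not NK cells express them. Expression was not measured here, so a background of expressed genes could not be given. Initiation factor genes had a promoter peak in 2 of 56 cases (3.57%, 0.436 to 12.3), and this split was not tested. Large subunit genes had a peak in 5 of 53 cases (9.43%, 3.14 to 20.7), small subunit genes in 3 of 34 (8.82%, 1.86 to 23.7) and initiation factor genes in 3 of 56 (5.36%, 1.12 to 14.9). The 3 intervals overlap widely, and the difference between the classes was not tested. A further 322 genes of the pattern are not protein-coding, 320 of them pseudogenes, and 0 of the 322 had a peak. The share of all genes of such types with a peak was not computed, so no background stands beside this count. Of the protein-coding genes of the pattern, 132 had no peak.

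Within the initiation factors, the peaks fell on 1 of 4 genes with the Eif2ak prefix (Eif2ak3), 1 of 5 with the Eif4e prefix other than the Eif4ebp inhibitors (Eif4enif1), and 1 of 4 with the Eif5 prefix (Eif5a). The subunits of the factor that holds the initiator tRNA (4 Eif2s genes), of its exchange factor (5 Eif2b genes) and of the scaffold on the small subunit (14 Eif3 genes) had 0 with a peak. For the 14 Eif3 genes a count of 0 still allows a share of up to 23.2%, the upper exact bound, or 21.4% by the limit of 3 counts. The RNA helicases (4 Eif4a genes), the cap-complex scaffolds (3 Eif4g genes) and the cap-binding inhibitors (3 Eif4ebp genes) had 0 as well. Over all protein-coding genes the share with a peak was 5.38%, and the interval of each of these families contains it. Sets this small cannot tell the families apart, and no difference between them was tested.

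The large subunit peaks all lay at promoters. Rpl10, whose product is among the last proteins added to the maturing large subunit, had the strongest at 9.21-fold (5.73 to 14.1) from 19 tags, on chromosome X at 74270041 to 74270630. Rpl39, a small protein lining the exit tunnel of the ribosome, had 7.59-fold (3.76 to 14.1) from 8 tags, on chromosome X at 37085268 to 37085520. Rpl7 had the same values, 7.59-fold from 8 tags, on chromosome 1 at 16104176 to 16104385. Their equality comes from whole tags over the lowest background of the list: 48 peaks, these included, share this fold and p. Rpl7l1, a paralog of Rpl7, had 6.75-fold (3.22 to 13.0) from 7 tags, on chromosome 17 at 46782576 to 46783203. Rpl31, at the rim of the exit tunnel, was the weakest of the large subunit at 5.75-fold (2.63 to 11.5) from 6 tags, on chromosome 1 at 39367910 to 39368117. All 5 intervals overlap, so their order was not resolved.

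Of the 3 small subunit peaks, 2 are described. Rps9, which helps form the channel through which mRNA enters, had 9.46-fold (5.46 to 15.4) from 14 tags, on chromosome 7 at 3704012 to 3704258. Rps14, a protein of the small subunit platform, had 5.06-fold (2.21 to 10.7) from 5 tags, on chromosome 18 at 60774293 to 60774581. Rps9 thus stood above Rps14 in its value, while their intervals overlapped.

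The 3 initiation factor peaks, in that class by symbol, each rested on 12 tags or more. By role, Eif2ak3 is a stress kinase, Eif4enif1 transports Eif4e and Eif5a acts in elongation and termination. None of them is one of the subunits, helicases or scaffolds counted above. Eif4enif1 had the strongest peak of the group, 12.6-fold (7.25 to 20.5) from 14 tags with a -log10 q of 17.7, on chromosome 11 at 3202093 to 3202548, and ranked 47 of 1404 by fold. Its lower bound was above the median of the other peaks, 6.44-fold, which no other member's was. Eif2ak3 had 8.20-fold (4.54 to 13.8) from 12 tags, on chromosome 6 at 70824633 to 70825157. Eif5a, which carries the modified residue hypusine and acts in elongation and termination despite its name, had 7.83-fold (4.67 to 12.4) from 16 tags, on chromosome 11 at 69921338 to 69921715.

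**Figure D1:**
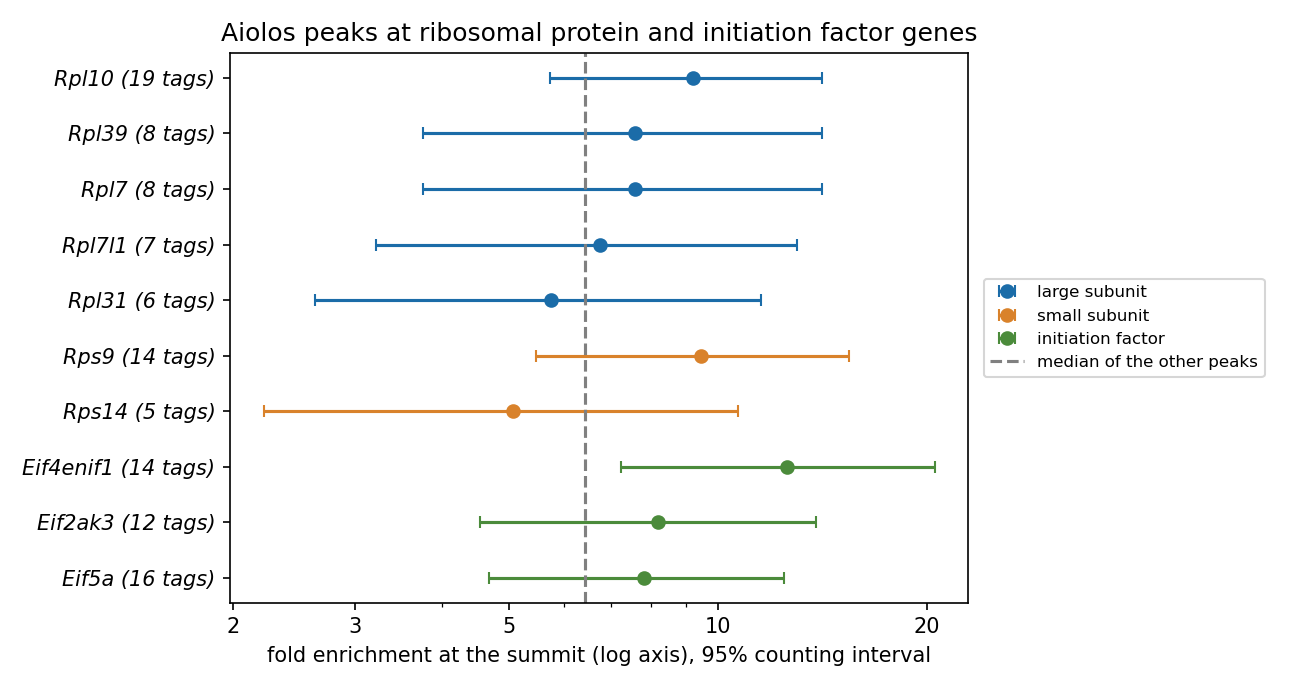
Fold enrichment at the summit of each of 10 peaks of the group (log axis) with the 95% Poisson counting interval, by class, and the tags behind it. The dashed line is the median of the 1393 other peaks, 6.44-fold, and Eif4enif1 alone has its whole interval above it.

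Taken as a group, the 11 peaks had a median fold of 7.59 (order-statistic interval 5.13 to 9.46; lowest 5.06, highest 12.6), against 6.44 (6.31 to 6.57) for the 1393 others. On the log2 scale the group was higher by 0.24. Above the median of the whole list lay 8 of 11 members (72.7%, 39.0 to 94.0), against 679 of 1393 others (48.7%). In antibody tags the medians were equal, 8 in the group and 8 in the others. The background at the summit had a median of 0.218 tags in the group and 0.267 tags in the others, and it was at its floor of 0.186 tags at 4 of 11 members (36.4%) and 361 of 1393 others (25.9%). With only the peaks above the median fold of the list the log2 difference was -0.0094. By class, the median fold was 7.59 for the large subunit (5 peaks) and 8.20 for the initiation factors (3 peaks). The large minus small subunit difference was 0.56 on the log2 scale and turned to -0.32 among the peaks above the median fold, where Rps9 alone was left for the small subunit. Initiation factors minus ribosomal proteins gave 0.19 on the log2 scale in fold and 0.90 in tags. In fold it was 0.43 without regulators and paralog-like genes. It was 0.045 when Eif4enif1 was left out too, which leaves Eif5a as the single peak at a gene with an Eif symbol.

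Equal numbers of tags gave different folds where the background differed. Eif4enif1 and Rps9 both rested on 14 tags, but the background was 0.194 tags at Eif4enif1 and 0.586 at Rps9, which gave 12.6-fold and 9.46-fold. The intervals of folds do not include error in the background itself. Rpl10, with the most tags of the group at 19, had a background of 1.17 tags, as did Eif5a with 16. Of the members, 6 of 11 rested on 10 tags or fewer (54.5%, 23.4 to 83.3), against 993 of 1393 others (71.3%).

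**Figure D2:**
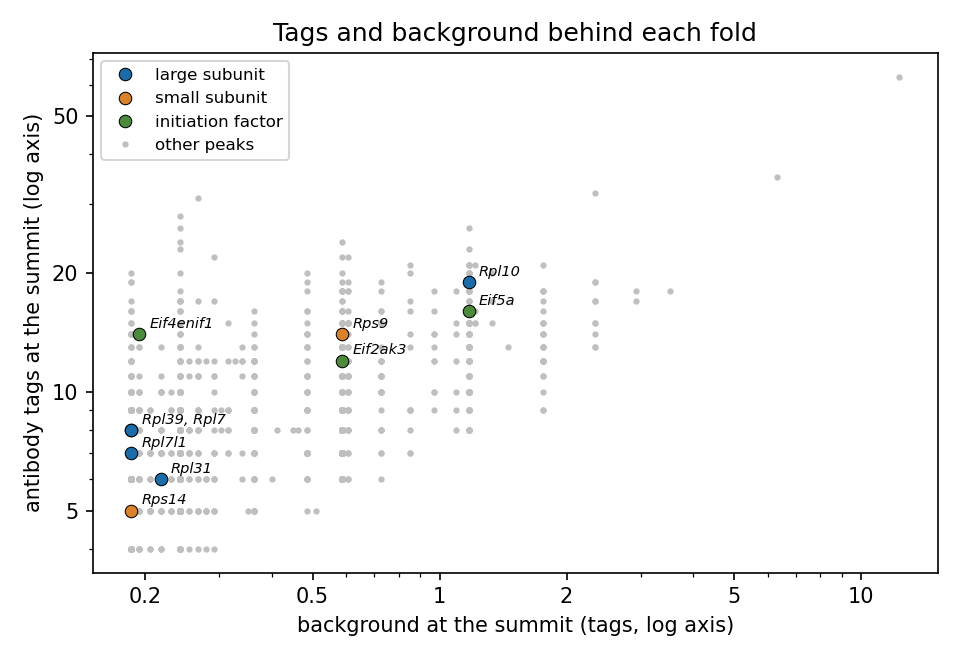
Antibody tags against background at the summit of 10 peaks of the group and the other peaks, both recovered from the authors' fold and p and on log axes. The 3 initiation factor peaks lie at 12 to 16 tags, while 5 of the 7 ribosomal protein peaks drawn lie at 5 to 8 tags over backgrounds of 0.186 to 0.218 tags.

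By position, 10 of 11 peaks were promoter peaks (90.9%, 58.7 to 99.8), against 900 of 1393 others (64.6%, 62.0 to 67.1). The peak covered the annotated start itself in 7 of 11 members (63.6%, 30.8 to 89.1), against 471 of 1393 others (33.8%, 31.3 to 36.4). Both member intervals contain the share of the others. The exception to the promoters was Eif2ak3, whose peak was intergenic, 19.4 kb upstream of the start. The nearest gene in the table was the long non-coding RNA gene Gm30331, 9.84 kb away, and the next protein-coding gene besides Eif2ak3 was Rpia, 32.5 kb away. The assignment to Eif2ak3 is the authors', and Gm30331 is nearer.

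Summits of the promoter peaks fell in several places relative to the start of the annotated transcript. Rps14, Eif4enif1, Eif5a and Rpl7l1 had theirs 160, 175, 181 and 200 bp upstream. Rpl7 had its summit 3 bp upstream, Rpl31 20 bp, Rpl39 42 bp and Rps9 61 bp downstream. Rpl10 had its summit farther out, 273 bp upstream. The promoter peaks of Rpl10 and Rps14 did not reach the start. In windows, 4 of 10 member summits lay 101 to 250 bp upstream (40.0%, 12.2 to 73.8), against 230 of 900 other promoter summits (25.6%). From the start to 49 bp downstream lay 2 of 10 (interval 2.52 to 55.6%), against 64 of 900 (7.11%), and from 50 to 149 bp downstream 1 of 10 (interval 0.253 to 44.5%), against 207 of 900 (23.0%). Each member interval contains the share of the other peaks. The median summit position was -167.5 bp in the group (order-statistic interval -273 to 42), against -78 bp in the other promoter peaks. Without regulators, paralog-like genes and Eif4enif1 the group median was -81.5 bp, over 8 peaks. Upstream of the start lay 7 of 10 (70.0%, 34.8 to 93.3), against 502 of 900 (55.8%). By class, 3 of 5 large subunit summits, 2 of 3 small subunit summits and both initiation factor summits at promoters were upstream.

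**Figure D3:**
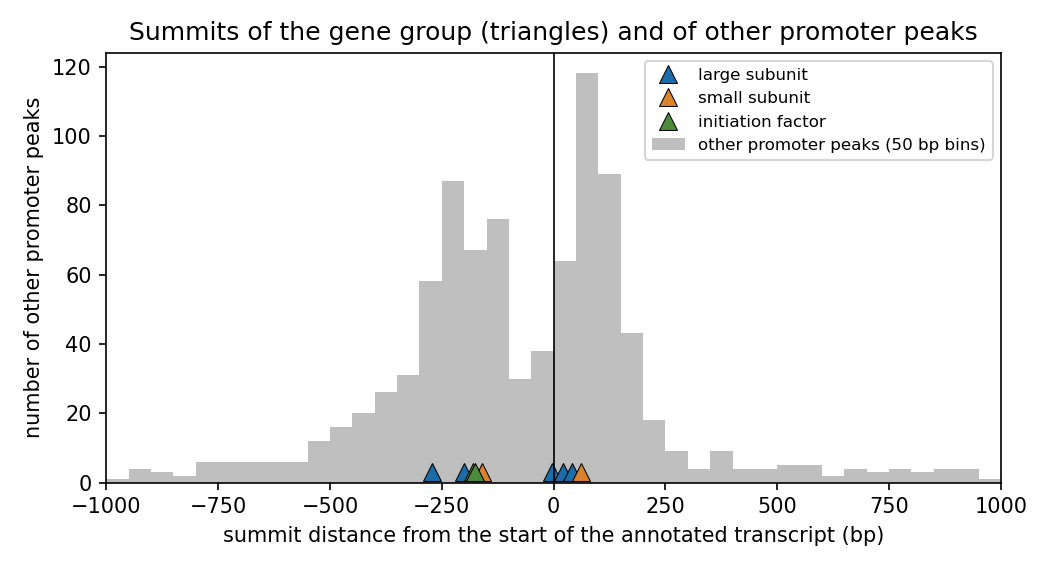
Summit distance from the start of the annotated transcript in bp, for 9 members at promoters (triangles, whose height carries no value) and the other promoter peaks (grey, 50 bp bins; 2 of 900 lie beyond the axis). Of the members, 4 sit in the upstream cluster at 160 to 200 bp, and 4 between 3 bp upstream and 61 bp downstream.

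Which start is used changes this picture for 3 genes. Measured from the outer start of the gene in RefSeq's table in place of the authors' transcript, the summit of Rpl7 lay 203 bp downstream, that of Eif5a 391 bp downstream and that of Rpl39 138 bp upstream, each on the other side of the start. For Rps9 the distance became 145 bp and for Rpl31 98 bp downstream, and for Eif4enif1 126 bp upstream. Rps14 and Rpl7l1 were unchanged at 160 and 200 bp upstream, because both annotations give them the same start. These starts were over 50 bp apart in 5 of 10 members and in 473 of 900 other promoter peaks (52.6%). The summit changed sides in 3 of 10 (interval 6.67 to 65.3%) and in 193 of 900 (21.4%). From the RefSeq start the median summit position was -132 bp in the group (order-statistic interval -277 to 203), against 81.5 bp in the other promoter peaks. Upstream of it lay 6 of 10 members (interval 26.2 to 87.8%), against 377 of 900 others (41.9%). Which start NK cells use at Rpl7, Eif5a and Rpl39 was not measured here.

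**Figure D4:**
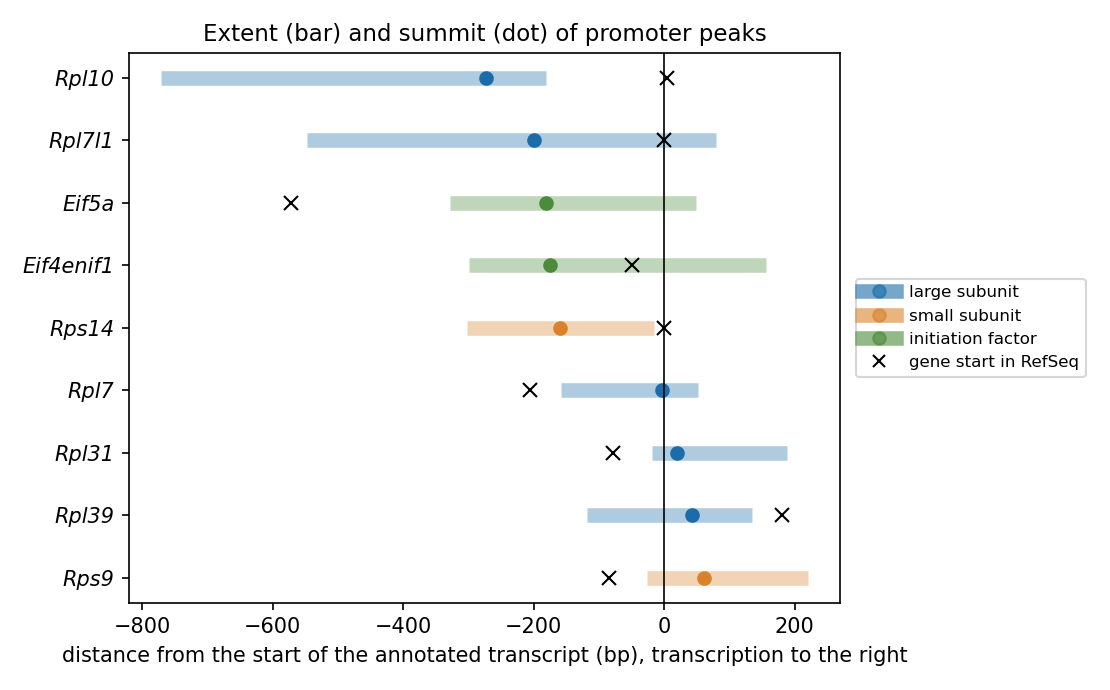
Extent (bar) and summit (dot) of 9 promoter peaks of the group in bp from the start of the annotated transcript, with the gene start in RefSeq as a cross. For Rpl7, Eif5a and Rpl39 the cross lies on the other side of the summit from the annotated start.

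Neighbouring genes share the region in some cases. The Eif4enif1 peak overlaps the genes Sfi1 and Gm51877 in the table, so it cannot be credited to Eif4enif1 alone. The promoter peaks of Rpl7, Rpl31, Rpl7l1, Rps14, Rps9, Rpl39 and Rpl10 were at least 1.50 kb from any other gene in the table, with Rdh10 the nearest, next to Rpl7. The Rps9 peak had another peak of the list 10.6 kb away. Processed copies of ribosomal protein genes are frequent in the mouse genome, and pseudogenes named for Rpl31 number 23, for Rpl10 6 and for Rpl7 3. Reads from sequence shared with such copies may be placed on either, and no source used here says how the authors treated them. Whether bases under these peaks occur in such copies was not tested. The Rpl10 peak lies wholly upstream of its annotated transcript. Peaks of the group were 208 to 628 bp wide, and the median width was 289 bp, against 265 bp in the others. The 4 widest were those of Rpl7l1, Rpl10, Eif2ak3 and Eif4enif1, at 628, 590, 525 and 456 bp.

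Rpl10 and Rpl39 both lie on chromosome X, which held 14 of 1404 peaks (0.997%, 0.546 to 1.67). They were 2 of the 13 protein-coding X genes with a peak, from 966 such genes on X. The group has 6 protein-coding genes there in all, so 4 were without a peak.

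The other genes of the translation machinery were taken from lists by role. Ribosomal genes whose symbols fall outside the pattern had 2 of 6 with a peak (33.3%, 4.33 to 77.7), against 5.38% of all protein-coding genes. Of these, Rplp1, a protein of the ribosomal stalk, was credited with an intergenic peak of 5.05-fold from a distance of 206.6 kb. Elongation and release factors had 2 of 11 (18.2%, 2.28 to 51.8). Eef1a1, which delivers aminoacyl-tRNA, had a promoter peak of 4.98-fold (2.37 to 9.60) and an intergenic one of 5.90-fold 38.5 kb upstream, and Eef1d, an exchange factor for it, a promoter peak of 4.93-fold (2.15 to 10.4). Translation control had 4 of 20 (interval 5.73 to 43.7%), 3 of them at promoters. The lists were chosen with earlier results of these data known, so these shares are descriptions. The 4 genes were the growth kinase inhibitor Tsc1 with a promoter peak of 5.05-fold (2.41 to 9.73), the kinase Mknk2 at 4.41-fold, Rps6ka3 at 4.22-fold from 4 tags, and Rps6ka1 with an intergenic peak of 7.57-fold 22.7 kb upstream. Ribosome biogenesis had 1 of 22 (4.55%, 0.115 to 22.8), Wdr12, a protein needed to mature large subunit RNA, at 7.47-fold (4.04 to 12.9) at its promoter. Of the promoter peaks in these lists, those of Eef1a1, Eef1d, Tsc1, Mknk2 and Rps6ka3 were below the weakest of the 11 members, Rps14 at 5.06-fold, in value, though every interval overlaps that of Rps14.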

How the data were processed

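The starting point was the peak list deposited for the series, from 1 library with the Aiolos antibody. MACS2, Bowtie2, Picard and SAMtools and the build mm10 are named, per the submitters' processing notes, with no role or order. No source used here gives the cutoff, how duplicates were treated, or whether the library without antibody served as control. The authors' signal value, per the file headers, is taken as MACS2's fold enrichment (a ratio). Beside it, each peak's p-value and q-value were deposited as -log10. The deposited score is 10 times the -log10 q, without decimals. Each fold, q, position and gene assignment printed is the authors' deposited value.

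Total depth is not in the list. Tags and background at each summit were solved from fold and p, with fold as tags plus 1 over background plus 1 and p as a Poisson tail. A whole number of tags met the p of every one of the 1404 peaks (largest deviation in -log10 p 1.75e-05), and the solver was tested on simulated data. Folds carry exact Poisson intervals with the background held fixed, so error in the background is not in them. Duplicates of 1 molecule would also make them too narrow. Medians carry order-statistic intervals from the binomial. Genes and biotypes come from RefSeq's table for GRCm38.p6, in which all 11 member genes matched by identifier. Promoter sequences come from RefSeq on the same build. Work was done in Python 3.11.15 with SciPy 1.17.1.

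The members, lists, windows and alternatives were chosen with earlier results of these data known. The rule names every member gene with a peak, and in related lists every gene with a peak up to 4 by fold. A few named genes are not reported here, in text or figures, and counts over the group include them. Sequences are shown for the promoter windows under member peaks. The RefSeq start and the list without Eif4enif1 were added after values were seen. The alternatives were stricter peak sets, other promoter definitions, merging within 500 bp, fewer sequences, tags in place of fold, the strongest peak per gene and other gene sets.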

Additional observations from a re-analysis of the deposited data

How the results depend on the processing

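The 7 summary values were recomputed under 14 alternatives, 63 values in all, of which 54 stayed within the interval of the reported value (for differences, within a band centred on it and as wide as the log2 interquartile span of the members' folds, 0.479). With peaks of at least the median -log10 q, the group minus other difference in log2 median fold was -0.0062 and the large minus small subunit difference -0.32; among peaks above the median fold they were -0.0094 and -0.32. Both filters act on the strength compared and left 8 members. With tags in place of fold the group median was 8 tags, by construction another unit, and initiation factors minus ribosomal proteins was 0.90. Without regulators and paralog-like genes, and also without Eif4enif1, the promoter share was 100%, since Eif2ak3 is left out. Over all gene types 2.37% of the group had a peak, since pseudogenes had none. No share over all genes of every type was computed to set beside it. With the gene start in RefSeq the summits changed sides at Rpl7 (203 bp), Eif5a (391 bp) and Rpl39 (-138 bp), because the starts differ. Leaving out replicates was not possible with 1 library per group. Depth limits every single peak: with 5 to 19 tags, the order of the members was not resolved. No paired analysis was possible because each group has a single library.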
